A study of Homo sapiens with 8 samples.

Results

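The genes described here are 9 genes of the B cell stage that precedes the plasma cell: SPI1 (Entrez 6688), BCL6 (Entrez 604), PAX5 (Entrez 5079), BACH2 (Entrez 60468), SPIB (Entrez 6689), CD79A (Entrez 973), CD79B (Entrez 974), CD22 (Entrez 933) and CD37 (Entrez 951). They were picked by symbol from the 25906 genes of the deposited table, and the question put to them was whether they return when IRF4 falls. RNA was sequenced 72 hours after lentiviral transduction of NCI-H929 and MM.1S cells, both established from multiple myeloma, the cancer of plasma cells. The vector carried CTBP2, a corepressor that DNA-bound repressors recruit, or was empty (EV). With 2 libraries, called biological duplicates, for each vector in each line there were 4 groups and 8 libraries, and no group lacked a lentiviral vector. Whether duplicates came from separate cultures is not given, so p-values measure the spread between these libraries.

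B cells and plasma cells hold each other's programmes off. PAX5 keeps B cell identity, BCL6 runs the germinal centre by repressing its targets through corepressors, BACH2 delays plasma cell differentiation by repressing PRDM1, and SPI1 (PU.1) and SPIB are ETS factors of which SPI1 is also the master factor of myeloid cells. CD79A and CD79B are the signalling chains of the B cell receptor, CD22 is a sialic acid-binding inhibitor of that receptor, and CD37 is a tetraspanin of the B cell surface. On the plasma cell side stand IRF4, which represses BCL6, and PRDM1 (Blimp-1), which represses PAX5, SPIB and CD22. Most plasma cells have little PAX5 and CD22.

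Line genes set 2 libraries against their labels. The library labelled as MM.1S CTBP2 replicate 2 had 22.2 FPKM of FGFR3, the receptor kinase that marks NCI-H929, and 0.0582 FPKM of CCND2, the cyclin that marks MM.1S. The library labelled as NCI-H929 CTBP2 replicate 2 had 0.0399 FPKM of FGFR3 and 60.7 FPKM of CCND2. CTBP2 itself followed the vector labels, at 1621 to 5884 FPKM in the 4 CTBP2 libraries against 0.149 to 0.213 FPKM in the 4 EV libraries. Groups below go by the line genes, with CCND2 above 10 FPKM read as MM.1S and FGFR3 above 10 FPKM as NCI-H929. Results are also given in the 6 libraries without both CTBP2 replicate 2 libraries, and with the line as labelled. Estimated depth was 16000000 to 21100000 fragments per library. The FPKM of a library summed to 459733 to 544210 in CTBP2 libraries and to 547097 to 659837 in EV libraries, and 11351 to 11912 genes against 10615 to 11012 genes reached 1 FPKM. A rescaling called equal totals below gave every library the same summed FPKM over all genes except the transduced CTBP2. With it SPI1 and BCL6 kept their calls in both lines together (log2 fold changes of 1.19 and 0.90). That scaling is named below where it ends or makes the call of a gene named here. A fit with a replicate block, a term for libraries of the same line and replicate number, is named where it changes a call of a member.

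The promoter windows of BCL6 and CD79A are printed because these members rose and had a window in the promoter set used. Its windows came from RefSeq (GRCh38.p14) and ran from 250 bases before to 50 bases after the start of the gene. The set had windows for 6 of the 9 members, 7 windows in all. SPI1, CD79B and CD37 had none in this set, which does not mean that RefSeq lacks these genes. The window of BCL6 lies at chr3:187745419-187745718 on the minus strand and that of CD79A at chr19:41877029-41877328 on the plus strand. Capitals mark matches to the palindrome TTCNNNGAA, which BCL6 and STAT factors bind, in BCL6, and to AGGAAGT, an ETS core found in PU.1 sites, in CD79A.
BCL6: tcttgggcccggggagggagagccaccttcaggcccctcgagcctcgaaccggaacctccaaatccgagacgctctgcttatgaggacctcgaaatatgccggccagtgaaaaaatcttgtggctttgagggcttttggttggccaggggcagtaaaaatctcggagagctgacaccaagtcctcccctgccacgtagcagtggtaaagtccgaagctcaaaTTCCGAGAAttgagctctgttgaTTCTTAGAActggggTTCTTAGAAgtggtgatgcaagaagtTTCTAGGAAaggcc
CD79A: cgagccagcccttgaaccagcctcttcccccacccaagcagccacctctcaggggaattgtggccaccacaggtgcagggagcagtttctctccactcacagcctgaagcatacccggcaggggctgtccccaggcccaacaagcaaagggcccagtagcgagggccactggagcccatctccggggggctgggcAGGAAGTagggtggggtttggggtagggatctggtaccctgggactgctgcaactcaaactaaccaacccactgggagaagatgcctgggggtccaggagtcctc
The window of BCL6 held 4 copies of TTCNNNGAA, from -28, -5, 11 and 37 relative to the start. They read TTCCGAGAA, TTCTTAGAA, TTCTTAGAA and TTCTAGGAA. Of 35116 windows of the same length, 7.66% held at least 1 copy and 7 windows (0.0199%) held at least 4. A second BCL6 window, at chr3:187736452-187736751, held no match to any of the 6 motifs searched on both strands. The window of CD79A held AGGAAGT from -55, as 8.24% of all windows did on either strand. The other motifs were an IRF repeat (GAAA, any 2 bases, GAAA; 3.57% of windows), an ETS-IRF composite (GGAA, any 2 bases, GAAA; 2.82%), an EBF palindrome (TCCC, any 2 bases, GGGA; 1.21%) and the octamer ATGCAAAT (1.77%), and none of the 7 windows held one of these. A match is a run of letters, not a shown binding site.

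Of the 9 members, 3 rose with CTBP2 in both lines together (SPI1, BCL6 and CD79A), none fell, 3 were tested and did not pass (BACH2, CD79B and CD37), and 3 lay under the filter of 1 FPKM in at least 2 libraries (PAX5, SPIB and CD22). Across all 12583 genes tested, 34.1% were called in this comparison, 17.4% higher and 16.7% lower, at a limma p under 0.05 after Benjamini-Hochberg (BH) adjustment. With libraries scaled to equal totals the split of all calls was 3878 genes higher and 868 lower, against 2186 higher and 2101 lower on the values as deposited. BCL6 and CD79A reached 1 FPKM in CTBP2 libraries alone, so they entered the test through the group in which they were high, and the count of 3 does not bear on whether members rose more often than other genes. Fold changes are on log2(FPKM + 1), which understates the change of low genes. In cultures like these, fewer cells with a transcript and less of it per cell cannot be told apart.

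IRF4 (Entrez 3662), the plasma cell factor the question starts from, fell in both lines. It was at 66.8 FPKM in NCI-H929 CTBP2 replicate 1 and 69.6 FPKM in the library labelled as MM.1S CTBP2 replicate 2, against 131.9 and 160.3 FPKM in the NCI-H929 EV libraries. In MM.1S-expressing cells the level was 59.7 FPKM in MM.1S CTBP2 replicate 1 and 63.2 FPKM in the library labelled as NCI-H929 CTBP2 replicate 2, against 154.0 and 142.8 FPKM in the MM.1S EV libraries. All 4 CTBP2 libraries lay below all 4 EV libraries, an order that 7.45% of tested genes showed, and the log2 fold change came to -1.17 (SE 0.12, limma BH-adjusted p = 0.00166). PRDM1 (Entrez 639) was at 40.4 to 58.3 FPKM in CTBP2 libraries and at 52.8 to 61.5 FPKM in EV libraries, a log2 fold change of -0.33 (SE 0.14, limma BH-adjusted p = 0.0934). The value passed with median-of-ratios scaling (-0.40, limma BH-adjusted p = 0.0409) and without the library labelled as MM.1S CTBP2 replicate 2 (-0.46, limma BH-adjusted p = 0.0234), and was -0.04 with equal totals (limma BH-adjusted p = 0.885). Both plasma cell factors were thus still expressed in every CTBP2 library.

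**Figure D1:**
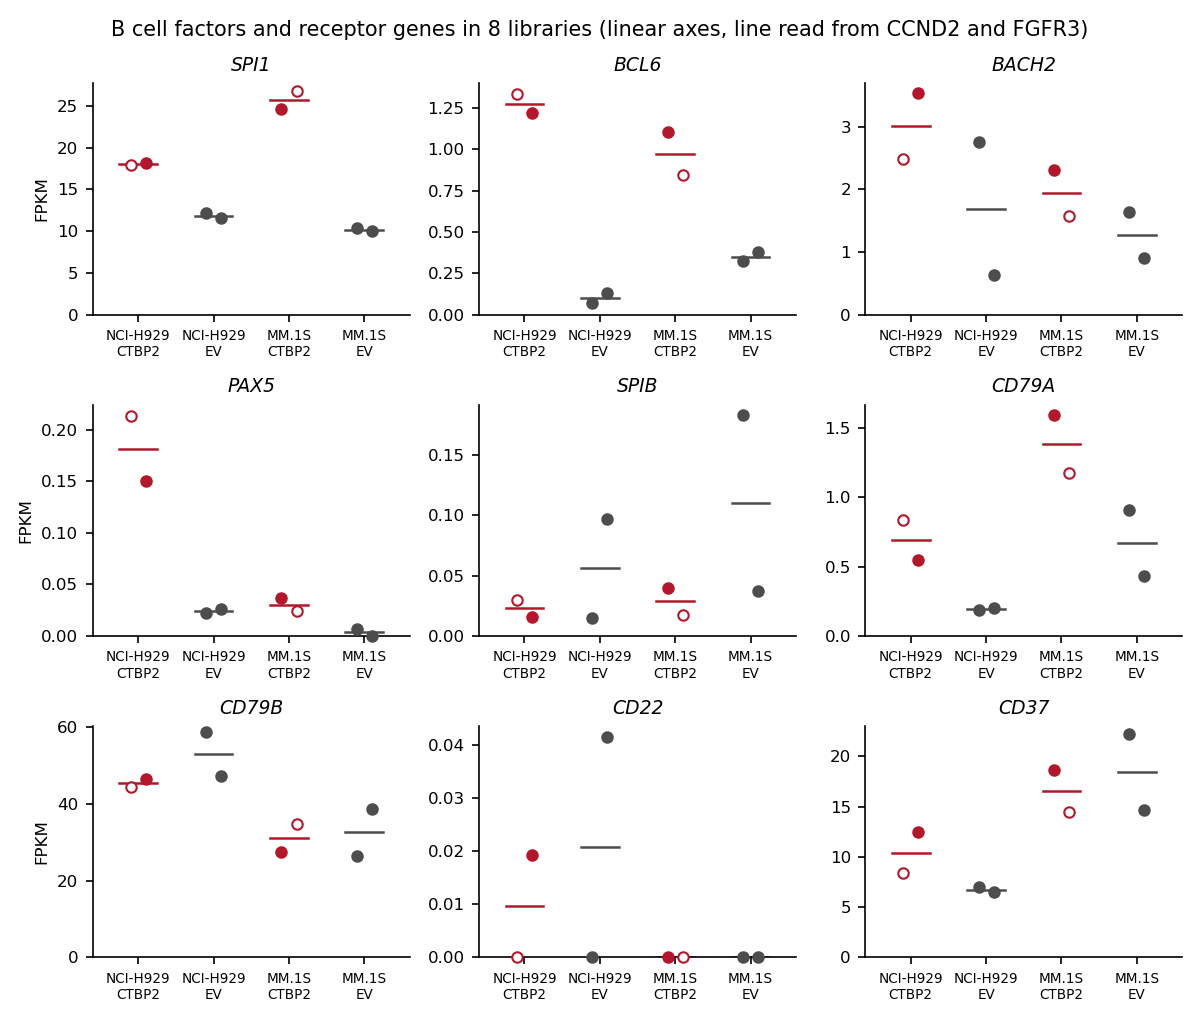
FPKM (vertical axes, linear, each from 0) of the 9 members in the 8 libraries, by line read from CCND2 and FGFR3 and by vector, 2 libraries a group, with points for libraries, lines for group means and open points for the 2 libraries whose line genes go against their labels. SPI1 lay between 17.9 and 26.8 FPKM in CTBP2 libraries and between 10.0 and 12.2 FPKM in EV libraries, and SPIB and CD22 stayed near 0. BCL6 showed the same order as SPI1, at 0.843 to 1.34 FPKM with CTBP2 against 0.0704 to 0.377 FPKM with EV. Of all tested genes 7.21% showed this order, and BCL6 entered the test through CTBP2 libraries alone.

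Among the transcription factors, SPI1 rose, and lay above 10 FPKM in every library. In NCI-H929 CTBP2 replicate 1 and the library labelled as MM.1S CTBP2 replicate 2, SPI1 stood at 18.1 and 17.9 FPKM, against 12.2 and 11.5 FPKM in the NCI-H929 EV libraries, a ratio of means of 1.52. Levels were 24.6 FPKM in MM.1S CTBP2 replicate 1 and 26.8 FPKM in the library labelled as NCI-H929 CTBP2 replicate 2, against 10.3 and 10.0 FPKM in the MM.1S EV libraries, a ratio of 2.53. Every CTBP2 library lay above every EV library, an order that 7.21% of tested genes showed. Means were 21.9 ± 4.54 FPKM with CTBP2 and 11.01 ± 1.01 FPKM with EV (SD, n = 4 each). The log2 fold change in both lines together was 0.91 (SE 0.15, limma BH-adjusted p = 0.00469). It was 0.89 (limma BH-adjusted p = 0.0113) in the 6 libraries, where 24.5% of all genes were called, and 0.91 (limma BH-adjusted p = 0.045) with the line as labelled, where 3.34% were. In a ranking of the 12583 genes by p, SPI1 stood at 403.

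Within the lines SPI1 rose by 0.56 in the NCI-H929-expressing libraries (log2, SE 0.13, limma BH-adjusted p = 0.0162) and by 1.26 in the MM.1S-expressing libraries (SE 0.13, limma BH-adjusted p = 0.00521). The shares of all genes called were 32.9% and 5.47%, or 4138 and 688 genes, against 6475 and 3543 genes with the replicate block. The difference between the lines was -0.69 (SE 0.19, limma BH-adjusted p = 0.132) and did not pass, where 1.26% of all genes did. With the replicate block it passed (-0.69, limma BH-adjusted p = 0.0436). The call within NCI-H929 did not hold in the 6 libraries (0.57, limma BH-adjusted p = 0.0713), without NCI-H929 EV replicate 1 (0.60, limma BH-adjusted p = 0.0815) or without NCI-H929 EV replicate 2 (0.53, limma BH-adjusted p = 0.0725). The call within MM.1S was lost without MM.1S EV replicate 1, MM.1S CTBP2 replicate 1 or MM.1S EV replicate 2, with values of 1.28, 1.32 and 1.24 and limma BH-adjusted p of 0.0576, 0.0586 and 0.0512. With the line as labelled neither line's call passed (limma BH-adjusted p = 0.208 in NCI-H929 and 0.149 in MM.1S).

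BCL6, the germinal centre repressor, rose as well, at low levels throughout. It was at 1.22 FPKM in NCI-H929 CTBP2 replicate 1 and 1.34 FPKM in the library labelled as MM.1S CTBP2 replicate 2, against 0.0704 and 0.129 FPKM in the NCI-H929 EV libraries. The MM.1S-expressing CTBP2 libraries, MM.1S CTBP2 replicate 1 and the one labelled as NCI-H929 CTBP2 replicate 2, had 1.11 and 0.843 FPKM, against 0.325 and 0.377 FPKM in the MM.1S EV libraries. All 4 CTBP2 libraries lay above all 4 EV libraries, an order that 7.21% of tested genes showed. BCL6 entered the test through CTBP2 libraries alone, so the filter favoured this order. Means were 1.13 ± 0.211 FPKM with CTBP2 and 0.226 ± 0.149 FPKM with EV (SD, n = 4 each). From the estimated depth and transcript lengths these values stand for about 42.5 to 97.2 fragments in a CTBP2 library and about 3.8 to 21.5 in an EV library. The linear ratio of means was 4.99, and the log2 fold change on log2(FPKM + 1) was 0.80 (SE 0.14, limma BH-adjusted p = 0.00545). It was 0.83 (limma BH-adjusted p = 0.0118) in the 6 libraries and 0.80 (limma BH-adjusted p = 0.0483) with the line as labelled.

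By line, BCL6 rose by 1.05 in the NCI-H929-expressing libraries (log2, SE 0.13, limma BH-adjusted p = 0.00211), a linear ratio of 12.8. In the MM.1S-expressing libraries the value was 0.54 (SE 0.13, limma BH-adjusted p = 0.0524), a linear ratio of 2.77, and it did not pass. That value passed in the 6 libraries (0.64, limma BH-adjusted p = 0.0419), without the library labelled as MM.1S CTBP2 replicate 2 (0.54, limma BH-adjusted p = 0.0391) and without NCI-H929 CTBP2 replicate 1 (0.54, limma BH-adjusted p = 0.039). Neither of these single libraries is in the contrast, and leaving one out moves only the shared estimate of spread. With the replicate block the MM.1S value passed as well (0.54, limma BH-adjusted p = 0.0195). The difference between the lines was 0.51 (SE 0.19, limma BH-adjusted p = 0.243). With the line as labelled the NCI-H929 value was 0.88 (limma BH-adjusted p = 0.188).

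BACH2, the repressor of PRDM1, did not pass with line and vector fitted to the values as deposited, and passed with the replicate block or equal totals. It was at 3.55 FPKM in NCI-H929 CTBP2 replicate 1 and 2.48 FPKM in the library labelled as MM.1S CTBP2 replicate 2, against 2.76 and 0.627 FPKM in the NCI-H929 EV libraries. In MM.1S-expressing cells the level was 2.31 FPKM in MM.1S CTBP2 replicate 1 and 1.57 FPKM in the library labelled as NCI-H929 CTBP2 replicate 2, against 1.64 and 0.902 FPKM in the MM.1S EV libraries. The vectors overlapped in both lines, and the widest spread was between the NCI-H929 EV libraries. The log2 fold change was 0.53 (SE 0.26, 95% interval -0.04 to 1.11, limma BH-adjusted p = 0.128). With the block it passed in both lines together (0.53, SE 0.16, limma BH-adjusted p = 0.0403) and in the NCI-H929-expressing libraries (0.69, SE 0.20, limma BH-adjusted p = 0.0265). With libraries scaled to equal totals it was 0.72 and passed (limma BH-adjusted p = 0.0478). Without NCI-H929 EV replicate 1 the value in the NCI-H929-expressing libraries was 1.29 and passed (limma BH-adjusted p = 0.0431), against 0.69 (limma BH-adjusted p = 0.18) with that library in.

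PAX5 and SPIB stayed under 1 FPKM in all 8 libraries. PAX5 was at 0.150 FPKM in NCI-H929 CTBP2 replicate 1 and 0.214 FPKM in the library labelled as MM.1S CTBP2 replicate 2, against 0.0220 and 0.0256 FPKM in the NCI-H929 EV libraries. Levels were 0.0369 FPKM in MM.1S CTBP2 replicate 1 and 0.0239 FPKM in the library labelled as NCI-H929 CTBP2 replicate 2, against 0.00663 FPKM and a listed 0 in the MM.1S EV libraries. CTBP2 libraries thus lay above EV libraries within each line, at a level of about 37.5 fragments or fewer. With 2 libraries against 2 in a line, the share of all genes in this order was not counted. Without a filter PAX5 passed in the NCI-H929-expressing libraries (log2 fold change 0.21, SE 0.03, limma BH-adjusted p = 0.0116) and not in both lines together (0.12, SE 0.04, limma BH-adjusted p = 0.0653) or in MM.1S (0.04, SE 0.03, limma BH-adjusted p = 0.547). SPIB was at 0.0160 to 0.0399 FPKM in CTBP2 libraries and at 0.0152 to 0.183 FPKM in EV libraries, a log2 fold change of -0.08 (SE 0.05, limma BH-adjusted p = 0.275) without a filter. EBF1, the factor that acts with PAX5 in early B cells, reached at most 0.236 FPKM in a CTBP2 library and 0.0644 FPKM in an EV library. Within each line its CTBP2 libraries lay above its EV libraries, with ratios of means of 3.44 in NCI-H929 and 3.81 in MM.1S. EBF1 lay under the filter, and the share of all genes in this order was not counted.

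**Figure D2:**
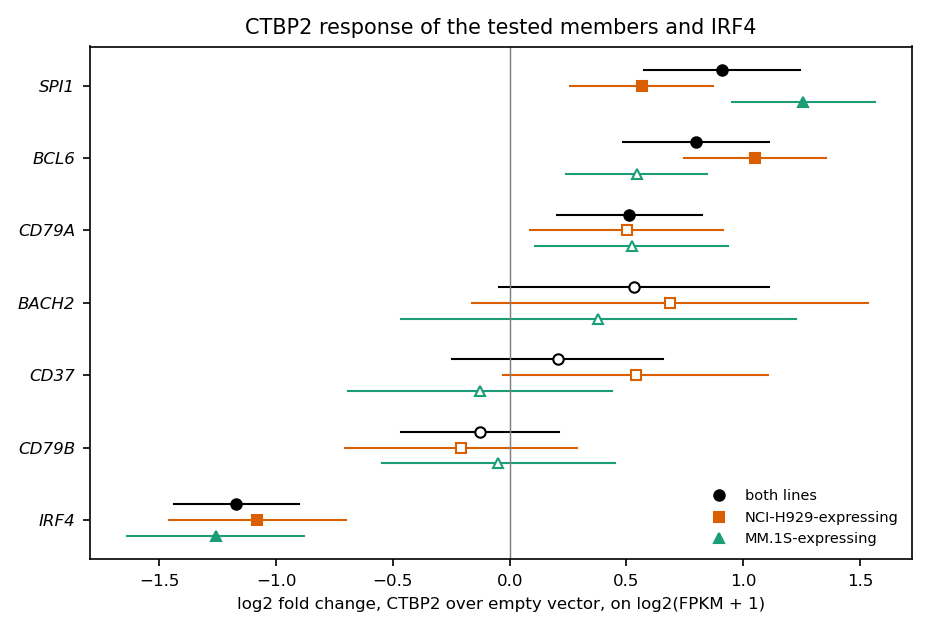
Log2 fold change of CTBP2 over EV on log2(FPKM + 1) with 95% intervals (limma) for the 6 tested members and IRF4, in both lines together and in NCI-H929-expressing and MM.1S-expressing libraries, filled where the adjusted p was under 0.05. SPI1 and BCL6 lay at 0.91 and 0.80 in both lines together, the interval of CD79B reached from -0.47 to 0.21, and IRF4 lay at -1.17.

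Of the receptor chains CD79A rose and CD79B did not pass, and the difference between the chains was not tested. CD79A was at 0.550 FPKM in NCI-H929 CTBP2 replicate 1 and 0.837 FPKM in the library labelled as MM.1S CTBP2 replicate 2, against 0.184 and 0.198 FPKM in the NCI-H929 EV libraries. The MM.1S-expressing CTBP2 libraries, MM.1S CTBP2 replicate 1 and the one labelled as NCI-H929 CTBP2 replicate 2, had 1.60 and 1.18 FPKM, against 0.909 and 0.434 FPKM in the MM.1S EV libraries. CTBP2 libraries lay above EV libraries within each line, and the vectors overlapped across the lines. Within a line this is an order of 2 libraries against 2, and its share over all genes was not counted. The log2 fold change was 0.51 (SE 0.14, limma BH-adjusted p = 0.0205), with linear ratios of means of 3.62 in NCI-H929-expressing and 2.07 in MM.1S-expressing libraries. About 5.8 to 42.4 fragments stood behind a value in a CTBP2 library and about 2.0 to 19.3 in an EV library. The values within NCI-H929 (0.50, SE 0.18, limma BH-adjusted p = 0.0632) and within MM.1S (0.52, SE 0.18, limma BH-adjusted p = 0.114) did not pass. The NCI-H929 value passed in 4 of 17 alternatives, with a pseudocount of 0.1 (1.42, limma BH-adjusted p = 0.0253), equal totals (0.61, limma BH-adjusted p = 0.0444), the replicate block (0.50, limma BH-adjusted p = 0.0143) and without NCI-H929 CTBP2 replicate 1 (0.63, limma BH-adjusted p = 0.0479). The MM.1S value passed with the replicate block (0.52, limma BH-adjusted p = 0.0235).

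The call of CD79A in both lines together was lost in the 6 libraries (0.52, limma BH-adjusted p = 0.0653), with the line as labelled (0.51, limma BH-adjusted p = 0.213) and after quantile normalization (0.20, limma BH-adjusted p = 0.25). It was also lost without MM.1S CTBP2 replicate 1 (0.46, limma BH-adjusted p = 0.0659), MM.1S EV replicate 2 (0.43, limma BH-adjusted p = 0.0611), NCI-H929 EV replicate 1 (0.51, limma BH-adjusted p = 0.0536) or NCI-H929 EV replicate 2 (0.52, limma BH-adjusted p = 0.0526).

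CD79B, the partner chain, was abundant under both vectors. It was at 46.6 FPKM in NCI-H929 CTBP2 replicate 1 and 44.5 FPKM in the library labelled as MM.1S CTBP2 replicate 2, against 58.7 and 47.5 FPKM in the NCI-H929 EV libraries. In MM.1S-expressing cells the level was 27.5 FPKM in MM.1S CTBP2 replicate 1 and 34.8 FPKM in the library labelled as NCI-H929 CTBP2 replicate 2, against 26.5 and 38.7 FPKM in the MM.1S EV libraries. The log2 fold change was -0.13 (SE 0.15, 95% interval -0.47 to 0.21, limma BH-adjusted p = 0.52), and its sign turned with quantile normalization (0.08) and with equal totals (0.17).

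CD37 and CD22 make up the rest of the surface genes. CD37 was at 12.5 FPKM in NCI-H929 CTBP2 replicate 1 and 8.38 FPKM in the library labelled as MM.1S CTBP2 replicate 2, against 6.99 and 6.49 FPKM in the NCI-H929 EV libraries. Levels were 18.6 FPKM in MM.1S CTBP2 replicate 1 and 14.5 FPKM in the library labelled as NCI-H929 CTBP2 replicate 2, against 22.2 and 14.7 FPKM in the MM.1S EV libraries. CTBP2 libraries lay above EV libraries in NCI-H929 and overlapped them in MM.1S. The order in NCI-H929 is one of 2 libraries against 2, and its share over all genes was not counted. The log2 fold change was 0.21 in both lines (SE 0.20, 95% interval -0.25 to 0.66, limma BH-adjusted p = 0.436) and 0.54 in NCI-H929 (SE 0.25, limma BH-adjusted p = 0.125). With equal totals the NCI-H929 value was 0.89 and passed (limma BH-adjusted p = 0.0267), as it did with the replicate block (0.54, limma BH-adjusted p = 0.0187). The difference between the lines was 0.67 (SE 0.35, limma BH-adjusted p = 0.42). CD22 was listed at 0 in 6 of the 8 libraries, at 0.0194 FPKM in NCI-H929 CTBP2 replicate 1 and at 0.0416 FPKM in NCI-H929 EV replicate 2.

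In the EV libraries the members ranked differently in the lines on the FPKM scale, which is per length. CD79B stood highest in both, at 53.1 ± 7.98 FPKM in NCI-H929 and 32.6 ± 8.62 FPKM in MM.1S (SD, n = 2 each), with a log2 difference of 0.70 (SE 0.22, limma BH-adjusted p = 0.0258). SPI1 came next in NCI-H929, at 11.9 ± 0.460 FPKM, above CD37 at 6.74 ± 0.354 FPKM. In MM.1S that order was turned, with SPI1 at 10.2 ± 0.212 FPKM and CD37 at 18.4 ± 5.36 FPKM. CD37 was lower in NCI-H929 than in MM.1S by a log2 difference of -1.30 (SE 0.25, limma BH-adjusted p = 0.00289). These were 2 called members of 6 tested, where 50.8% of all genes differed between the lines. Below them came BACH2, at 1.69 ± 1.51 and 1.27 ± 0.524 FPKM, then CD79A, BCL6 and the genes near 0. BACH2 and CD79A overlapped in MM.1S, and CD79A lay above BCL6 in both lines. The CD79B call was lost without MM.1S EV replicate 1 (0.44, limma BH-adjusted p = 0.18) or NCI-H929 EV replicate 1 (0.55, limma BH-adjusted p = 0.151). The difference of CD79A between the lines, at -0.47 (SE 0.18, limma BH-adjusted p = 0.0562), did not pass with all libraries and passed in 7 of 17 alternatives, among them a pseudocount of 0.1 (-1.33, limma BH-adjusted p = 0.0187), the replicate block (-0.47, limma BH-adjusted p = 0.0134) and leaving out MM.1S EV replicate 2 (-0.68, limma BH-adjusted p = 0.03).

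As a description over the 8 libraries, which share line and vector differences, the genes whose log2(FPKM + 1) followed a member most closely by Pearson's r were named. For SPI1 they were PPFIBP2 (0.987), CRYZ (0.979) and CACHD1 (0.978). BCL6 was followed by ZBTB22 (0.995), NAP1L2 (0.993) and EXOC7 (0.989). CD79A was followed by RCAN3 (0.994), ZMYM6 (0.992) and CHM (0.991). BACH2 had less close neighbours, led by STARD4 (0.912), POU2F1 (0.902) and HNRNPH2 (0.893). CD79B was followed by NEURL4 (0.987), FXR2 (0.985) and ASNS (0.983), and CD37 by KANK1 (0.988), SSTR3 (0.985) and ATRN (0.98).

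Lists of related genes, chosen with earlier results of these data known, show where the members stand in their pathways. Beside the list counts, 34.1% of all tested genes were called in both lines together, 17.4% higher and 16.7% lower. Among 23 other B cell transcription factors, 22 were tested, of which 3 rose and 3 fell in both lines together, with a median log2 fold change of 0.09 against 0.04 over all tested genes. RUNX1, a factor of early blood and B cells, was at 12.1 to 21.5 FPKM in CTBP2 libraries and at 4.36 to 8.94 FPKM in EV libraries (log2 fold change 1.33, SE 0.13, limma BH-adjusted p = 0.00137). TCF4 (E2-2), an E protein, rose by 0.63 (limma BH-adjusted p = 0.0134). POU2F2 (Oct-2), which binds the octamer, fell by 0.82 (limma BH-adjusted p = 0.00601). The E protein TCF3 fell by 0.47 (limma BH-adjusted p = 0.0143), and lost its call in 4 of 18 alternatives. These were quantile normalization (-0.17, limma BH-adjusted p = 0.228), equal totals (-0.17, limma BH-adjusted p = 0.274), the line as labelled (-0.47, limma BH-adjusted p = 0.0941) and leaving out MM.1S CTBP2 replicate 1 (-0.42, limma BH-adjusted p = 0.0576).

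Around the B cell receptor, 26 of 30 signalling genes were tested, of which 10 rose and 3 fell, with a median of 0.36. Of these, 3 (BANK1, FCGR2B and PIK3CD) reached 1 FPKM in CTBP2 libraries alone, so they entered through the vector in which they were high, and the count and median do not show that the list rose more than other genes. LAT2 (NTAL), a membrane adaptor, was at 25.9 to 73.5 FPKM in CTBP2 libraries and at 11.5 to 19.6 FPKM in EV libraries (log2 fold change 1.42, SE 0.16, limma BH-adjusted p = 0.00212). BLNK, the adaptor next to the receptor, had 2.75 and 1.54 FPKM in NCI-H929-expressing CTBP2 libraries, against 0.419 and 0.605 FPKM in NCI-H929 EV. It had 32.5 and 38.4 FPKM in MM.1S-expressing CTBP2 libraries, against 18.8 and 20.5 FPKM in MM.1S EV, and rose by 0.93 in both lines together (SE 0.15, limma BH-adjusted p = 0.00453). PLCG2, the phospholipase downstream of BLNK, rose by 1.18 (limma BH-adjusted p = 0.00656). FCGR2B, an inhibitory Fc receptor, rose by 2.58 (limma BH-adjusted p = 0.0046), a value that is uncertain because near-identical Fc receptor genes can share its reads. VAV2 and CD81 were among the genes that fell.

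Of 37 B cell surface and stage genes, 19 were tested, 8 rose and 1 fell, with a median of 0.46. FCRL1, MME and VPREB3, 3 of the 8 that rose, reached 1 FPKM in CTBP2 libraries alone. This count and median thus do not show that the list rose more than other genes. LY86 (MD-1) rose by 1.61 (limma BH-adjusted p = 0.0081) and FCRL5, an Fc receptor-like gene, by 1.45 (limma BH-adjusted p = 0.00996). CD48 fell by 0.92 (limma BH-adjusted p = 0.00685). The defining B cell gene MS4A1 (CD20) reached at most 0.0586 FPKM in a CTBP2 library and 0.0681 FPKM in an EV library, and RAG1 and RAG2, the recombinase genes of early B cells, reached at most 0.165 FPKM in any library.

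Of 15 genes that BCL6 represses in germinal centre B cells 12 were tested and 25% of these were called, against 34.1% of all tested genes. Among the 12, 2 rose (among them CASP8, by 0.62, limma BH-adjusted p = 0.0098) and 1 fell (ATR by 0.41, limma BH-adjusted p = 0.0371), with a median of 0.25. With a share below that of all genes, these calls do not show how BCL6 targets as a list responded. The 12 include CCND2, from which line was read, so its values are not independent of the grouping. CCND2 did not pass in both lines together (-0.47, limma BH-adjusted p = 0.0967). It fell by 0.96 in the MM.1S-expressing libraries (limma BH-adjusted p = 0.0248), where 5.47% of all tested genes were called. ATR lost its call in 9 of 18 alternatives, among them equal totals (-0.15, limma BH-adjusted p = 0.46) and every single library left out except MM.1S EV replicate 2 and either of the CTBP2 replicate 2 libraries (log2 fold changes where the call was lost, -0.43 to -0.32). Of 6 BCL6 corepressors, 3 rose, among them the transduced CTBP2 and MTA3 (0.54, limma BH-adjusted p = 0.00854), where 17.4% of all tested genes rose. CTBP2 rose because it was transduced, so this count does not bear on corepressors as a list.

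Of 17 plasma cell genes, all tested, 1 rose (CD27, which reached 1 FPKM in CTBP2 libraries alone) and 7 fell, with a median of -0.35. These calls were 47.1% of the list, where 34.1% of all tested genes were called and 16.7% fell. By line, 1 gene other than CD27 was called higher and 4 lower in the NCI-H929-expressing libraries, 29.4% of the list. In the MM.1S-expressing libraries 1 was called higher and 2 lower, or 17.6%. Of all tested genes 32.9% and 5.47% were called in these comparisons. Whether the list fell more than other genes was not tested, and the values that follow are for both lines together. Beside IRF4, TNFRSF17 (BCMA), the plasma cell survival receptor, fell by 0.85 (limma BH-adjusted p = 0.00578), FKBP11, a chaperone of the secretory route, by 1.05 (limma BH-adjusted p = 0.00805), and HSP90B1 by 0.65 (limma BH-adjusted p = 0.00974). The HSP90B1 call was lost with equal totals (-0.35, limma BH-adjusted p = 0.0775), with quantile normalization (-0.37, limma BH-adjusted p = 0.0728) and with the line as labelled (-0.65, limma BH-adjusted p = 0.186).

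**Figure D3:**
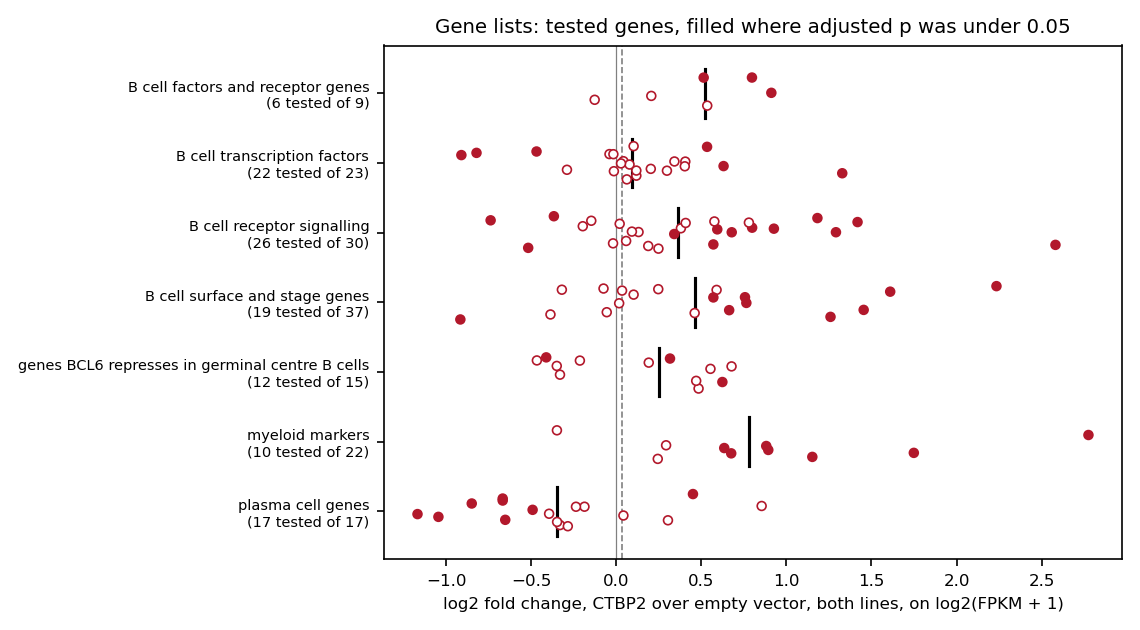
Log2 fold change of CTBP2 over EV in both lines together on log2(FPKM + 1) for the tested genes of 7 lists (points, spread vertically for display and filled where the limma BH-adjusted p was under 0.05), with the list median (bar) and the median of all tested genes (dashed line, 0.04). The medians of the B cell receptor and surface lists lay at 0.36 and 0.46, that of the myeloid markers at 0.78, and that of the plasma cell genes at -0.35. The receptor, surface and myeloid lists hold 3, 3 and 2 tested genes that reached 1 FPKM in CTBP2 libraries alone. Their distance from the median of all tested genes is therefore no evidence of a shift. The plasma cell list holds 1 such gene, CD27, which rose while the list median lay below. That list was chosen with earlier results of these data known, and whether it shifted was not tested.

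Markers of other blood cells were counted as well. Of 22 myeloid markers 10 were tested, of which 7 rose and none fell in both lines together, with a median of 0.78. In the NCI-H929-expressing libraries 1 was called lower. The summed level of the myeloid markers was 145.0 to 218.9 FPKM in CTBP2 libraries and 76.7 to 109.0 FPKM in EV libraries. With 2 tested markers entering through CTBP2 libraries alone, the count and median do not show that the list rose more than other genes. Among the genes that rose were NCF4, CYBB and NCF1, subunits of the phagocyte NADPH oxidase that B cells also have, with ITGAM, S100A9 and CD68, of which ITGAM and S100A9 reached 1 FPKM in CTBP2 libraries alone. NCF4 was at 31.2 to 50.6 FPKM in CTBP2 libraries and at 5.84 to 21.8 FPKM in EV libraries (1.75, SE 0.20, limma BH-adjusted p = 0.00212). CYBB rose by 0.88 (limma BH-adjusted p = 0.00697) and NCF1, which can share reads with near-identical pseudogenes, by 0.63 (limma BH-adjusted p = 0.0122). Of the 22 markers, 12 stayed under 1 FPKM in all libraries. Among these, MPO, ELANE, CSF3R, CEBPE and TYROBP were listed at 0 in 7 of 8 libraries each and at 0.246 FPKM or less in the other. CSF1R, CD14 and LYZ reached at most 0.552 FPKM. CEBPA, CD33 and FCER1G were among the 10 tested and were not called in both lines together. CEBPA was the marker called lower in the NCI-H929-expressing libraries.

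The 16 T and NK cell markers had summed levels of 11.5 to 57.4 FPKM in CTBP2 libraries and 3.16 to 19.3 FPKM in EV libraries. Of these markers 4 were tested, and 2 of the 4 reached 1 FPKM in CTBP2 libraries alone. In both lines together 1 rose, or 25% of those tested, where 34.1% of all tested genes were called. That gene was CD3E, at 2.44 to 53.1 FPKM in CTBP2 libraries and at 0.527 to 3.66 FPKM in EV libraries (2.13, SE 0.45, limma BH-adjusted p = 0.00925), while its partner chains CD3D and CD3G reached at most 0.214 FPKM. Of 13 erythroid and megakaryocyte markers 4 were tested and 1 fell (EPOR, -0.44, limma BH-adjusted p = 0.0442), again 25% against 34.1% of all tested genes. Their summed levels were 4.52 to 8.38 FPKM in CTBP2 libraries and 7.28 to 12.1 FPKM in EV libraries. EPOR lost its call in 11 of 18 alternatives, among them equal totals (-0.20, limma BH-adjusted p = 0.291), the line as labelled (-0.44, limma BH-adjusted p = 0.466) and every single library left out except MM.1S EV replicate 1 and the one labelled as NCI-H929 CTBP2 replicate 2 (log2 fold changes where the call was lost, -0.47 to -0.33). With the line as labelled, the genes named from these lists that passed were RUNX1, NCF4, IRF4 and CTBP2, where 3.34% of all genes were called.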

How the data were processed

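The values analysed were FPKM as deposited by the authors, in 1 table of 25906 genes and 8 libraries. The unit was read from the table's name and values. Libraries came from total RNA and a TruSeq kit, per the labels' protocols. Per the submitters' processing notes, DESeq2 2.11.40.2, HTSeq 0.9.1, the aligner STAR 2.6.0b-1, Trimmomatic 0.36.5, FastQC 0.11.7 and the build GRCh37 (hg19) were involved. The program behind the FPKM is not given in the sources used here. Because FPKM is relative to library total and transcript length, shifts in a few abundant transcripts move all other values.

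The 12583 genes that reached 1 FPKM in 2 or more libraries were tested on log2(FPKM + 1) with limma 3.58.1 in R 4.3.3 (eBayes with a mean-variance trend, two-sided), with Benjamini-Hochberg adjusted p under 0.05 as the threshold. Both lines together were fitted with line and vector, and single lines, their difference and the EV baseline with 1 mean per group. Vector came from the labels and line from CCND2 and FGFR3. Deviations of same-numbered libraries from their group means correlated at 0.452 in NCI-H929 and 0.435 in MM.1S with that line, and at 0.109 and 0.012 with the line as labelled. The labels do not say what a number shares, so a replicate block is given beside the results whose call it changes.

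The members and 9 further lists were chosen with earlier results of these data known. All members are named, together with up to 4 called genes per list by smallest adjusted p and the 3 most correlated genes per tested member. Some genes that the rule names are counted in their lists and not reported here by name.

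Depth was estimated from the spacing of low FPKM in genes longer than 1500 bases. Of these values 54.5 to 64.8% were within 0.1 of a whole fragment, where chance gives 20.0%, so no counts were recovered and the estimates cover counting error only. The code was tested on simulated data. Alternatives were line as labelled, 6 libraries, leaving out each library, 3 rescalings, a pseudocount of 0.1, no filter or one of 5 FPKM, no variance trend and a replicate block.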

Additional observations from a re-analysis of the deposited data

Results flagged for a closer look

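CD22 stood out in 1 library of each vector. It was at 0.01935 FPKM in NCI-H929 CTBP2 replicate 1, with the other CTBP2 libraries listed at 0, and at 0.04155 FPKM in NCI-H929 EV replicate 2, with the other EV libraries listed at 0. These values stand for about 1.0 to 1.2 and 1.9 to 2.4 fragments, and any value above 0 beside 3 libraries at 0 stands out in this way, so the usual chance of about 1 in 20 groups does not apply.

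Among the list genes, the difference between the lines in the CTBP2 effect passed for DOK3 and TRAT1. DOK3, an adaptor that restrains B cell receptor signalling, fell by 0.88 in NCI-H929-expressing libraries (limma BH-adjusted p = 0.00664) and rose by 0.84 in MM.1S-expressing libraries (limma BH-adjusted p = 0.0269), a difference of -1.722 (log2, limma BH-adjusted p = 0.0165). It was at 0.444 and 0.409 FPKM with CTBP2 and 1.38 and 1.90 FPKM with EV in NCI-H929, and at 16.0 and 18.7 FPKM with CTBP2 and 9.26 and 9.15 FPKM with EV in MM.1S. TRAT1, a T cell receptor adaptor, was at 0.0608 FPKM or less with CTBP2 and 0.0707 FPKM or less with EV in NCI-H929. In MM.1S it was at 6.08 and 6.67 FPKM with CTBP2 and 16.4 and 16.7 FPKM with EV, a difference between lines of 1.243 (log2, limma BH-adjusted p = 0.0303). With almost no TRAT1 in NCI-H929 it had no room to fall there, so this difference restates the lower level in MM.1S CTBP2 libraries and does not show that the lines responded differently. In the 6 libraries neither difference passed, with limma BH-adjusted p of 0.0857 for DOK3 and 0.105 for TRAT1.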

How the results depend on the processing

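SPI1 kept its call in both lines together in 18 of 18 alternatives (log2 fold change 0.82 to 1.19, limma BH-adjusted p 0.00128 to 0.045), and BCL6 in the 17 of 17 that gave a value (0.53 to 2.02, limma BH-adjusted p 0.00393 to 0.0483), while CD79A lost its call in 7 of 17. A filter of 5 FPKM leaves out BCL6, CD79A and BACH2, so 1 member was called in both lines and 1 in NCI-H929. With the line as labelled, 420 genes were called in both lines together, 7 in NCI-H929, 3 in MM.1S, 2 in the difference between lines and 5 at baseline, and members called were 0 in NCI-H929, 0 in MM.1S and 0 at baseline. In the 6 libraries, 1929 genes and 1 member were called in NCI-H929, 1429 genes and 2 members in MM.1S, and 44 genes in the difference. In MM.1S no filter gave 384 genes and a filter of 5 FPKM 422, and in the difference between lines a pseudocount of 0.1 gave 67 and a filter of 5 FPKM 62. Equal totals gave 4 members in NCI-H929. At baseline a pseudocount of 0.1 and quantile normalization gave 4 members each and no filter gave 1. The median of all tested genes was 0.04 as deposited, -0.02 with median-of-ratios, -0.01 with quantile normalization and 0.27 with equal totals. The cause of these shifts was not tested.

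With a replicate block, 4995 genes and 4 members were called in both lines together, 6475 genes and 5 members in NCI-H929, 3543 genes and 3 members in MM.1S, 1070 genes and 1 member in the difference (SPI1, -0.69, limma BH-adjusted p = 0.0436), and 8055 genes and 3 members at baseline. Beyond the calls given with their values in the results, it changed none of a member, or of a list gene named there in both lines together.

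Leaving out each library in turn gave 2458 to 4441 genes and 2 to 3 members in both lines together, 954 to 5127 genes and 1 to 3 members in NCI-H929, and 16 to 1420 genes and 0 to 2 members in MM.1S. It gave 6 to 418 genes and 0 members in the difference, and 4599 to 7072 genes and 1 to 3 members at baseline. Where a group was left with 1 library, that library was assumed to vary like the others.

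Sign changes were confined among members to values that never passed the threshold. CD79B turned to 0.08 and 0.17 in both lines with quantile normalization and equal totals, to 0.065 and 0.19 in NCI-H929 and 0.10 and 0.15 in MM.1S with the same settings, and to 0.12 in MM.1S with the line as labelled. CD37 in MM.1S turned to 0.06 with equal totals and 0.043 in the 6 libraries. In the difference between lines, BACH2 turned to -0.13 and CD79A to 0.23 with the line as labelled, CD79A to 0.42 with a pseudocount of 0.1, and CD79B to 0.038 with equal totals and 0.037 in the 6 libraries. With single libraries left out, CD79B in MM.1S ran from -0.31 to 0.22 and CD37 in MM.1S from -0.41 to 0.16. The differences between lines ran from -0.30 to 0.91 for BACH2, -0.23 to 0.19 for CD79A and -0.43 to 0.10 for CD79B, and the baseline of BACH2 from -0.46 to 0.75. At these depths, values under 1 FPKM rest on about 56.0 fragments or fewer for BCL6, CD79A, PAX5, SPIB and CD22.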
